A study of Mus musculus with 24 samples.

Results

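The Wnt pathway genes of mouse brain microvessels were followed after stroke, from secreted ligands over receptors to target genes. They were chosen by gene symbol: all Wnt, Fzd, Sfrp, Dkk, Dvl and Rspo genes that the table of normalized counts lists, the Nkd, Axin and Lgr genes, and further genes named one by one, among them Lrp5, Lrp6, Reck, Adgra2, Ndp, Tspan12, Lef1, Tcf7, Notum and Sox17. The rule found 60 of 17270 genes, and 56 of them averaged more than 5 normalized counts and were tested. Wnt2, Rspo2, Sfrp4 and Wif1 stayed below this limit. Male C57BL/6J mice aged 10 to 12 weeks underwent 60 min of transient occlusion of the middle cerebral artery (tMCAO) with a coated filament, or a sham operation in which the filament was withdrawn at once. Microvessels were collected from the ipsilateral, operated hemisphere and from the contralateral hemisphere 24 h or 7 days later. The libraries available here form 8 groups of 3. The paper states that more samples were prepared and that some were left out as outliers before its analysis. Each library pooled the vessels of 3 hemispheres, the cerebellum, brain stem and olfactory lobes had been removed, and the vessels were caught on a mesh and not sorted by cell type. Values are reads per gene divided by a size factor per library, here called normalized counts. Since the labels do not say that pools were prepared on separate days, p-values measure the spread between these pools. Samples left out as outliers do not enter this spread, and their effect on it was not tested.

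Wnt ligands are secreted lipid-bearing proteins that bind Frizzled receptors together with the co-receptors Lrp5 or Lrp6, which lets β-catenin accumulate and work with the transcription factors of the Tcf and Lef family. In the brain, Wnt7a and Wnt7b from neural cells act on endothelial cells through Reck and Adgra2, and norrin, the product of Ndp, acts through Frizzled 4 and Tspan12. This signal is known to build and maintain the blood-brain barrier. Axin2, Nkd1, Notum, Apcdd1 and Tnfrsf19 are target genes used to read it, and several of them damp the pathway in turn. Wnt5a and Wnt11 are best known for signalling that does not pass through β-catenin.

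The 250 bases before the transcription start are shown for 4 members that were all lower 24 h after tMCAO, a target gene (Axin2), a target and receptor of the TNF receptor family (Tnfrsf19), a co-receptor (Reck) and a ligand (Wnt11). The sequences were taken from RefSeq on build GRCm38.p6 and run 5′ to 3′ on the strand of the gene. Capitals mark the core of the motif of Tcf and Lef factors, CTTTGA or CTTTGT, or its reverse complement TCAAAG or ACAAAG.
Axin2, chr11:108920099-108920348, plus strand: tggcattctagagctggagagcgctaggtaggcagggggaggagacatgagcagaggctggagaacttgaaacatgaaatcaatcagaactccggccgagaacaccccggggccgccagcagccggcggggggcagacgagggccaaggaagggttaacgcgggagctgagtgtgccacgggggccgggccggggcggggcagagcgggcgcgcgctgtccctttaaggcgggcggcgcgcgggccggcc
Reck, chr4:43875280-43875529, plus strand: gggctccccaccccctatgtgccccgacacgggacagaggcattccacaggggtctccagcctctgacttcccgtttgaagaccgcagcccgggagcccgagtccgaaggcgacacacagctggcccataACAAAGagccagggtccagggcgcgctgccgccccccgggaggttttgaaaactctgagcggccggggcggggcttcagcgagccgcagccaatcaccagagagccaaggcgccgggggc
Tnfrsf19, chr14:61037988-61038237, minus strand, the inner of 2 starts: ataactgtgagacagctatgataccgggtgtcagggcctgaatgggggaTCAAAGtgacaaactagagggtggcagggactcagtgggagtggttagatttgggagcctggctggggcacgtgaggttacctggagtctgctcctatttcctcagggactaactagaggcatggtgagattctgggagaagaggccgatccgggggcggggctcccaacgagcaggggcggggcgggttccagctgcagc
Wnt11, chr7:98834862-98835111, plus strand, the outer of 2 starts: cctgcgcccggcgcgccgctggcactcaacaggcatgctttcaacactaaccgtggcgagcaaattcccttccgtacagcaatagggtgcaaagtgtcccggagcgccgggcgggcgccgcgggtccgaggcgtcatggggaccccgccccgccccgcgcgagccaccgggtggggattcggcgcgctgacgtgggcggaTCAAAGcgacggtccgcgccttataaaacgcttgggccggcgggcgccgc
Reck held 1 match 120 bases before the start, Tnfrsf19 1 match 201 bases before it and Wnt11 1 match 50 bases before it. The other start of Tnfrsf19 and that of Wnt11 in the table held 0 matches. Axin2 held none in this window. Over 49 promoters of 39 members, 24.5% held a match, against 27.6% of all 32851 promoters of the table. Apcdd1 and Fzd8 were left out of the search for members and are not among the 39. The share of all promoters was taken over the whole table, so the shares do not follow the same rule.

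The libraries held 15924780 to 18787932 normalized counts, from which the steps between low values gave an estimated 13692488 to 20035408 reads per library. Endothelial markers (Pecam1, Cdh5, Kdr, Tek, Flt1, Cldn5, Slco1a4 and Ly6c1) summed to 227543 to 323799 normalized counts in every library, so the labelled tissue was borne out, but markers of other cells were present too. At 24 h the endothelial sum was 227543 to 256284 in ipsilateral tMCAO libraries and 252699 to 292368 in ipsilateral sham libraries, and 1 of the 8 markers was called lower. At 7 days the ranges were 257447 to 323799 and 257864 to 286619, and none of the 8 was called by limma. Neuronal markers fell in all 8 genes at 7 days, with sums of 1460 to 2143 against 8656 to 13331 in sham, and in 4 of 8 genes at 24 h, with sums of 2890 to 3992 against 6765 to 7613. Markers of neutrophils and monocytes rose in 6 of 6 tested genes at 24 h, from sums of 278 to 1124 in sham to 3148 to 5909. Markers of the choroid plexus and ependyma fell in 3 of 6 genes at 7 days, with sums of 676 to 3112 against 15693 to 28788. Contralateral tMCAO replicate 1 at 7 days stood apart with a neuronal sum of 24440, against 9007 and 9525 in the other replicates of its group. In such bulk samples, fewer cells of a type and less RNA per cell cannot be told apart.

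**Figure D1:**
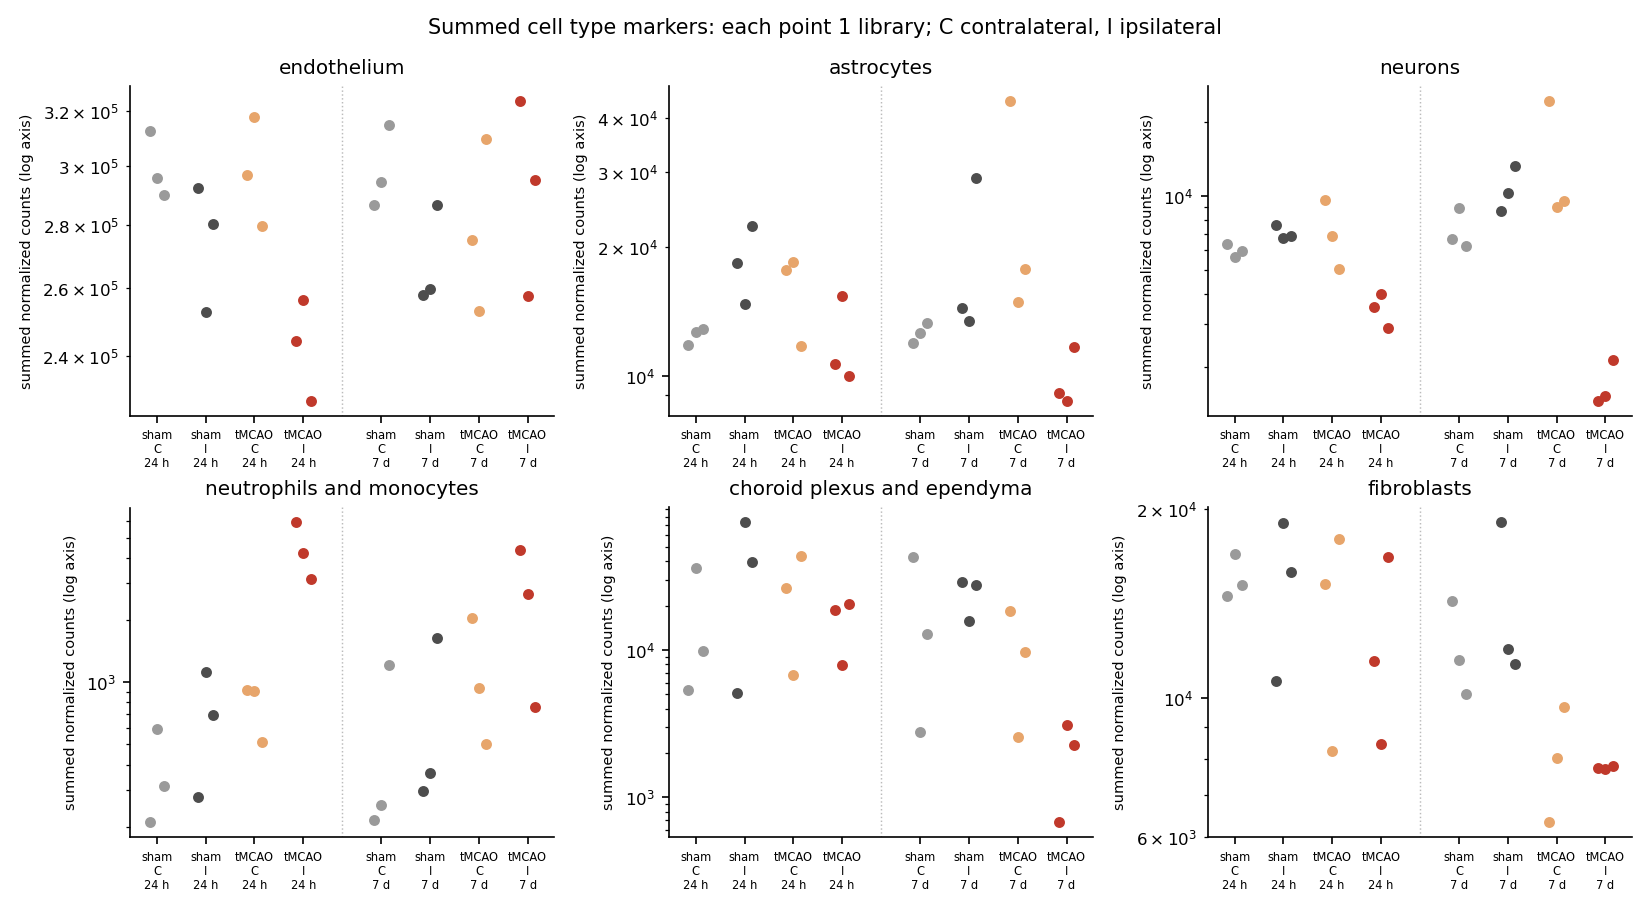
Summed normalized counts of 6 lists of cell type markers (log axis) in each library, by surgery, hemisphere (C contralateral, I ipsilateral) and time point. The neuronal sums of the ipsilateral tMCAO libraries lie below those of the ipsilateral sham libraries at both time points, while the endothelial sums stay between 227543 and 323799 throughout.

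In the 12 sham libraries, levels per kilobase of exon differed widely between members. Reck, a membrane-anchored protein that presents Wnt7 to the receptor, had the highest level with 1499 ± 221 normalized counts per kb (SD, n = 12). Sox17, a transcription factor of arterial endothelium that is tied to Wnt signalling, followed with 1288 ± 173, which was within the spread of Reck, and then Adgra2, an adhesion G protein-coupled receptor that works with Reck, with 1092 ± 114. Tnfrsf19 (1034 ± 241) and Fzd6 (935 ± 104) came next, and these neighbours did not differ beyond their spread. The norrin receptor Fzd4 stood at 665 ± 170 and its partner Tspan12 at 331 ± 29.1. Lrp5 (431 ± 71.8) had a higher level per kb than Lrp6 (196 ± 28.2), and the ranges of the libraries did not overlap, with 325 to 537 for Lrp5 and 148 to 254 for Lrp6. Among the ligands, Wnt5b (471 ± 111) and Wnt5a (210 ± 40.1) led, and Wnt7b (15.1 ± 6.36), Ndp (10.4 ± 3.54) and Wnt7a (9.04 ± 3.21) were low. Receptors were found from the top of the order down to Fzd10 with 9.97 per kb, and the genes below it had other roles. The members with fewer than 5 normalized counts per kb were Rspo3, Rnf43, Wnt10a, Wnt3, Wnt2, Wif1, Wnt9b, Lgr6, Sfrp4 and Rspo2.

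**Figure D2:**
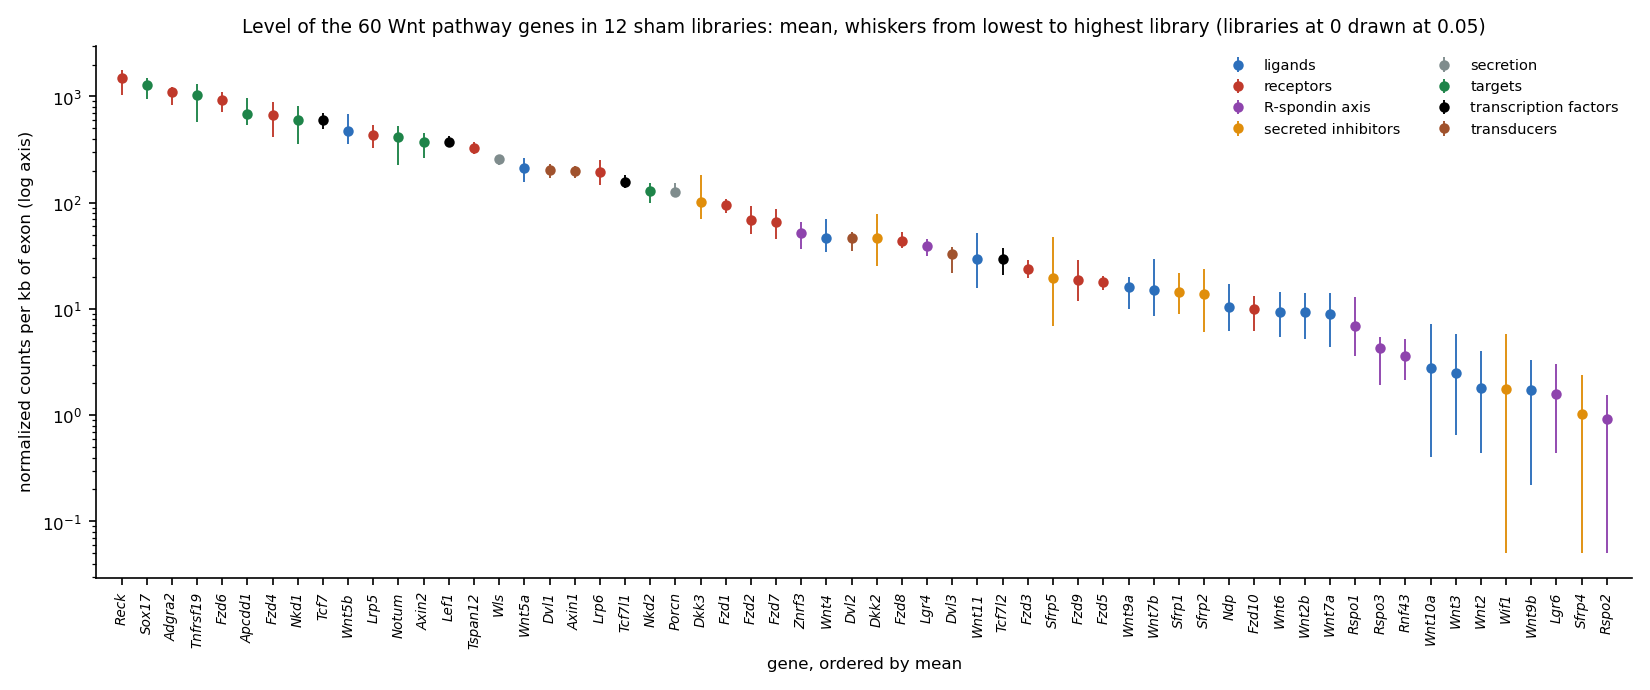
Level of each of the 60 genes in 12 sham libraries in normalized counts per kb of exon (log axis), coloured by role, with the mean as a point and whiskers from the lowest to the highest library. Reck leads with a mean of 1499 and Rspo2 ends the order at 0.93, and receptors are found from the top of the order down to Fzd10 at 9.97.

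In the ipsilateral hemisphere 24 h after tMCAO, 16 of the 56 tested members were lower than in sham and 0 were higher (28.6% and 0% of the members), while over all 15982 tested genes 8.23% were called lower and 10.0% higher. A gene was called with an adjusted p under 0.05 in limma and a fold change beyond 1.5 in either direction. The median log2 fold change of the members was -0.46, against -0.02 over all genes, and 51 members had a negative value. Without the limit on the fold change and without the adjustment, 25 members had a p under 0.05 in limma, a share near that of all genes (42.1%). In 28 members every tMCAO library lay below every sham library, and in 0 every one lay above, while 24.1% of all genes were apart downwards and 49.0% in either direction. Without ipsilateral sham replicate 1 the number of members lower at 24 h was 7, and without tMCAO replicate 1 or 2 it was 10. At 7 days 10 members were lower and 2 higher, against backgrounds of 9.95% and 3.27%, and the median was -0.22 against 0.02. Libraries were apart downwards in 17 members and upwards in 6, with 16.6% and 13.4% of all genes. The number lower at 7 days was 6 without sham replicate 1 and 5 without tMCAO replicate 1, so the order of the counts at the 2 time points depends on single libraries, and it was not tested. Of the members, 4 were lower at both time points (Fzd2, Fzd3, Fzd7 and Sfrp1). In all, 29 members were called in at least 1 of 6 stroke comparisons and 20 in at least 2. For the members lower at both time points and for these 2 counts, the share over all genes was not computed. They are therefore given as a description only.

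Against the contralateral hemisphere of the same surgery, 10 members were lower and 1 higher at 24 h (5.14% and 8.51% of all genes), and 12 lower and 0 higher at 7 days (9.98% and 3.03%). In the latter comparison 20 members had an unadjusted p under 0.05 in limma, against 26.9% of all genes. Without contralateral replicate 1, the library that stood apart, 7 were lower at 7 days. Between the ipsilateral tMCAO hemispheres, 5 members were higher and 5 lower at 7 days than at 24 h (3.72% and 8.44%). The stroke effect at 7 days minus that at 24 h, an interaction that asks whether the effect changed with time, was called positive in 7 members and negative in 3 (2.43% and 5.68%). These comparisons share libraries and are therefore given side by side. When the log2 values were set relative to the 8 endothelial markers, a scaling chosen after the data were seen that moved the median of all genes by up to 0.24 in size, the counts became 0 higher and 7 lower at 24 h, 0 and 11 at 7 days, 2 and 3 against the contralateral side at 24 h, 3 and 7 between the time points and 3 and 4 for the interaction. Centring each library on its median gave 8 and 4 between the time points.

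**Figure D3:**
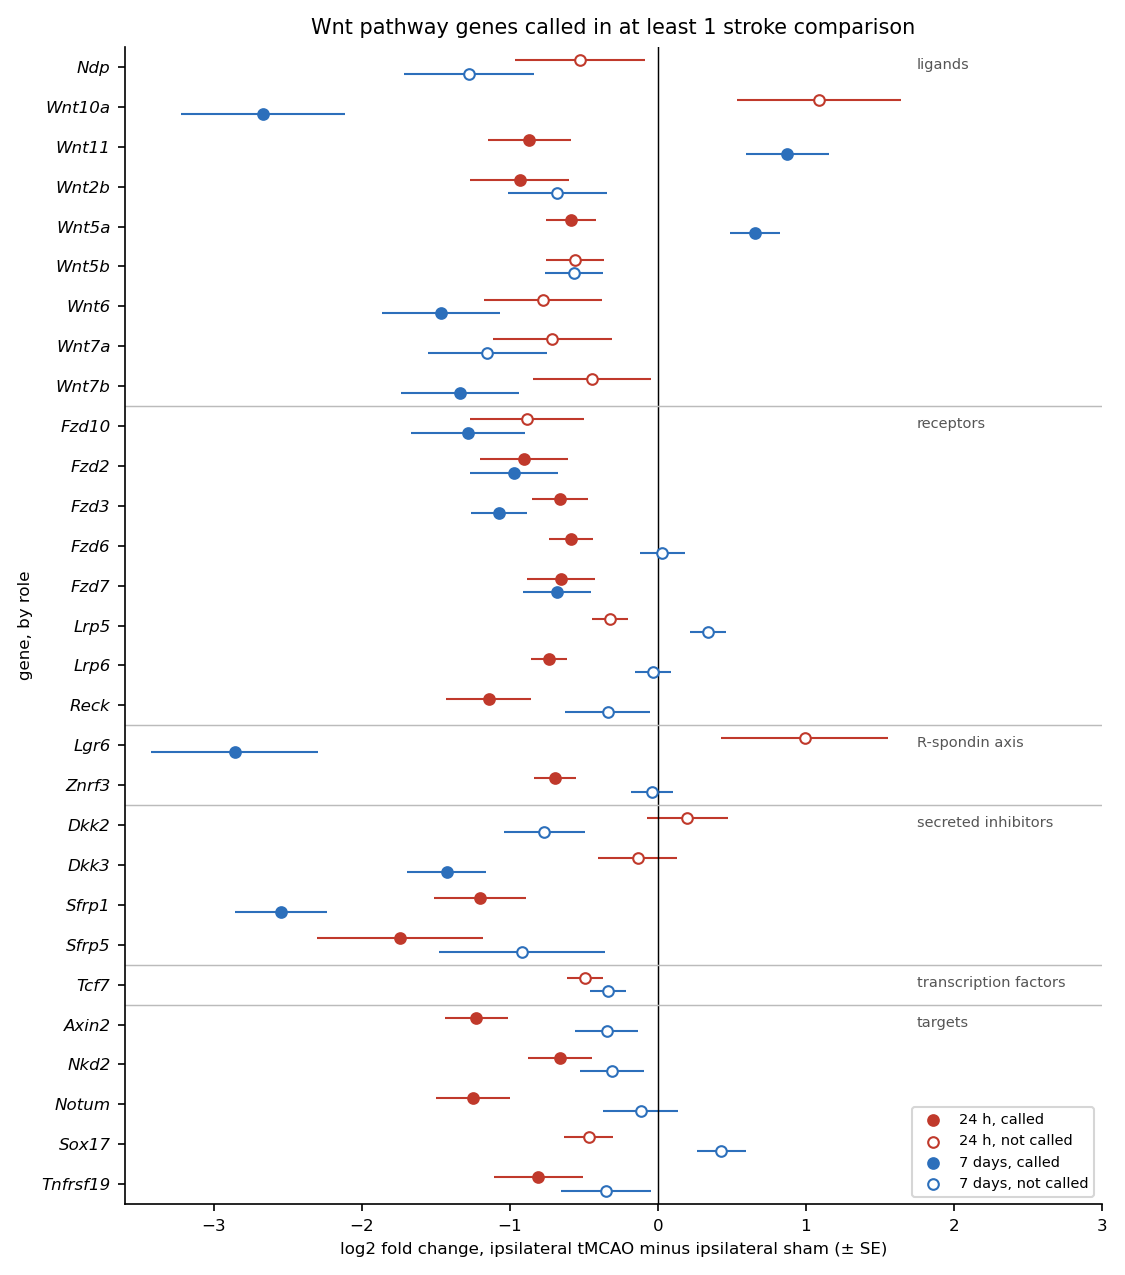
Log2 fold change (± SE) of ipsilateral tMCAO against ipsilateral sham at 24 h (red) and 7 days (blue) for the 29 members called in at least 1 stroke comparison, by role, with filled points for called members. Target genes, Lrp5, Lrp6 and Reck lie left of 0 at 24 h and between -0.35 and 0.43 at 7 days, whereas Wnt5a and Wnt11 change side.

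Among the ligands, Wnt5a and Wnt11 were lower at 24 h and higher at 7 days. Wnt5a (chr14:28504750-28527448, plus strand) stood at 1779, 1864 and 1393 normalized counts in ipsilateral sham and 1002, 1137 and 1199 in ipsilateral tMCAO libraries at 24 h. The groups did not overlap, and the log2 fold change was -0.59 ± 0.17 (SE, n = 3 per group, adjusted p = 0.0135 in limma). At 7 days sham libraries held 1580, 1253 and 1305 and tMCAO libraries 2447, 1735 and 2390, again with no overlap, but in the other direction (0.66 ± 0.17, adjusted p = 0.0101). The change of the effect was 1.24 ± 0.24 (adjusted p = 0.00274). Contralateral tMCAO libraries held 1879, 2443 and 1666 at 24 h, above the ipsilateral side (-0.83 ± 0.17, adjusted p = 0.00144), and 1740, 1641 and 2117 at 7 days, where the sides did not pass the test (0.25 ± 0.17, adjusted p = 0.391). The call against sham at 24 h was lost without sham replicate 1 (-0.54) or 2 (-0.50) or tMCAO replicate 1 (-0.51), and that at 7 days without tMCAO replicate 1 (0.57). Relative to the endothelial markers the values against sham were -0.47 and 0.58, under the limit of the fold change, and the change of the effect was still called (1.05).

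Wnt11 (chr7:98835131-98855195, plus strand), whose promoter is shown above, was present at a lower level. At 24 h it stood at 121, 83 and 169 in ipsilateral sham and 76, 48 and 75 in ipsilateral tMCAO libraries, which were all lower (-0.87 ± 0.28, adjusted p = 0.0242). At 7 days sham held 82, 65 and 90 and tMCAO 130, 124 and 187, which were all higher (0.88 ± 0.28, adjusted p = 0.0347). The change of the effect was 1.74 ± 0.39 (adjusted p = 0.00823). Sham values enter this change, and ipsilateral sham tended lower at 7 days than at 24 h, with overlap. Contralateral sham held 216, 155 and 207 at 24 h, all above its 7 day values, without being called. The ipsilateral tMCAO libraries at 7 days overlapped ipsilateral sham at 24 h. The contralateral tMCAO libraries at 7 days were higher still, with 183, 213 and 275, so that the hemispheres differed by -0.61 ± 0.28 (adjusted p = 0.163), and they lay above contralateral sham (105, 72 and 109) by 1.22 ± 0.28 without passing the test (adjusted p = 0.144). The call at 24 h was lost without sham replicate 1 (-0.86) or 3 (-0.62) or tMCAO replicate 2 (-0.65), and the call at 7 days without sham replicate 1 (0.91) or 2 (0.74) or tMCAO replicate 1 (0.95) or 3 (0.69). In every one of these fits the direction was kept. Relative to the endothelial markers Wnt11 was called lower at 24 h (-0.75) and no longer called higher at 7 days (0.80, adjusted p = 0.0548 in limma), and the change of the effect was still called (1.55).

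**Figure D4:**
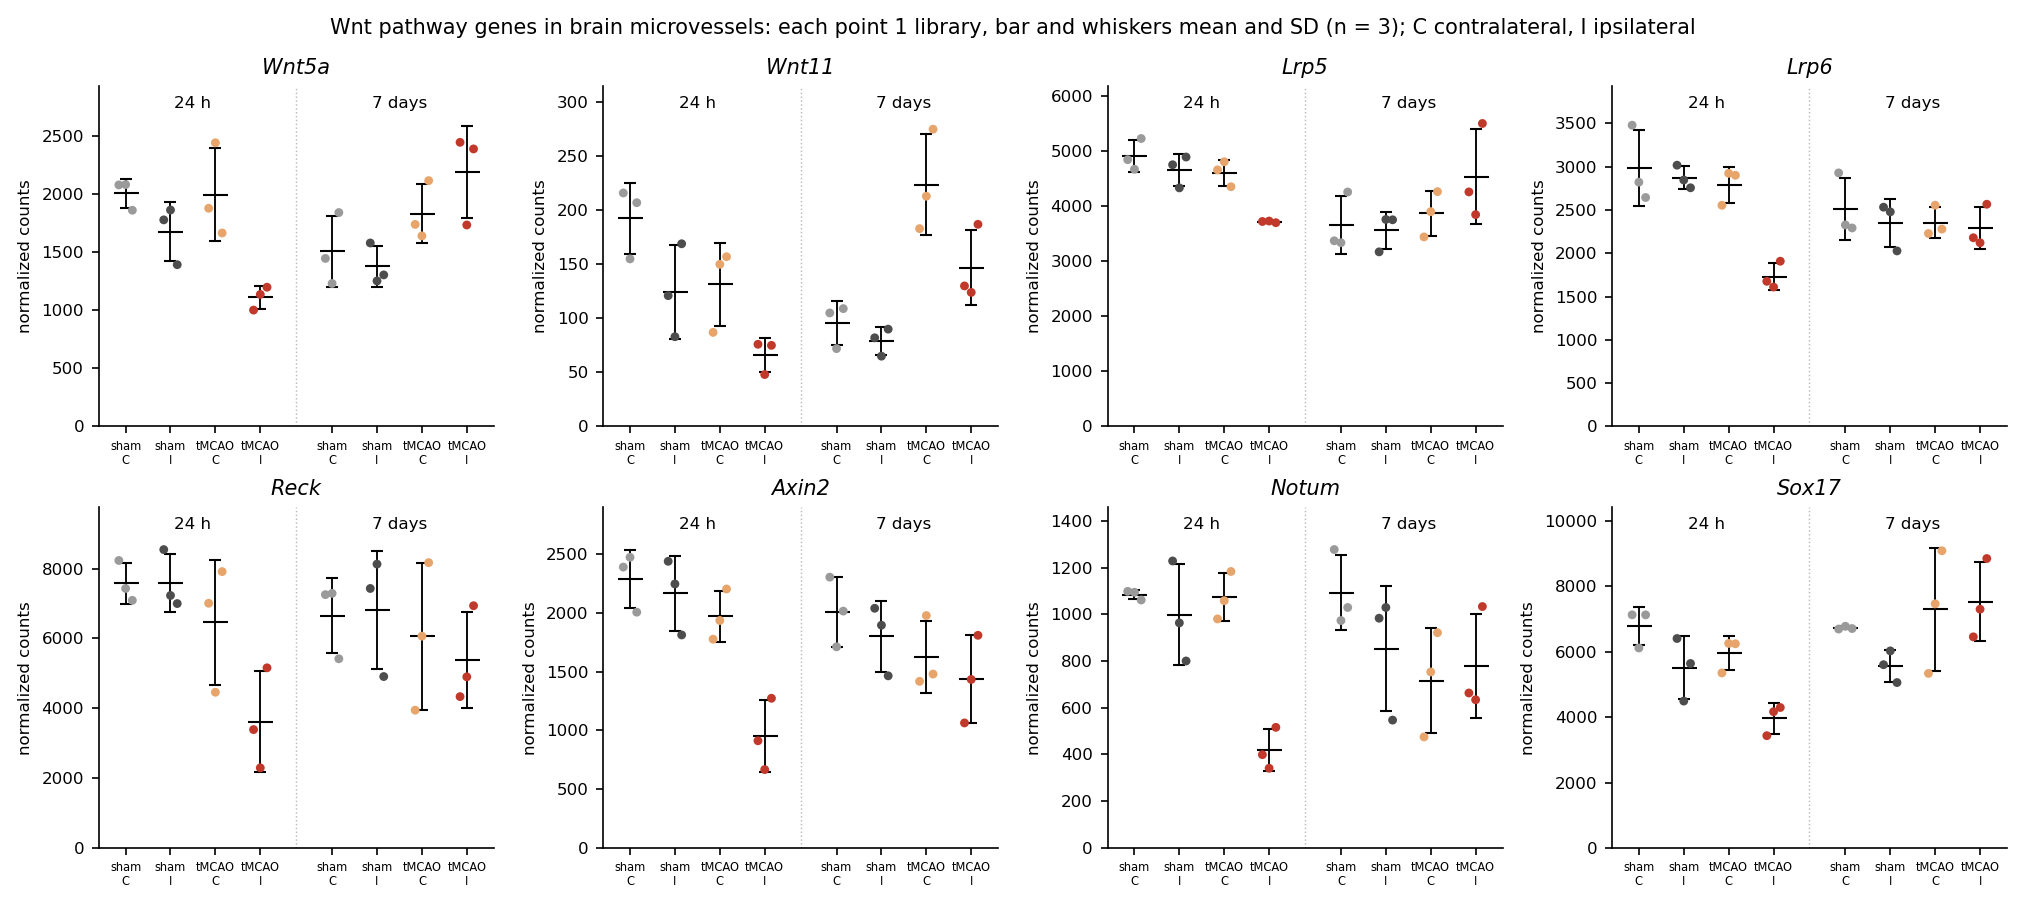
Normalized counts of 8 members in each library (points), with the mean and SD of each group (n = 3), by surgery, hemisphere (C contralateral, I ipsilateral) and time point. The ipsilateral tMCAO group at 24 h has the lowest mean in all 8 panels except Lrp5, where the means of both sham groups at 7 days are lower, and Wnt5a and Wnt11 lie above ipsilateral sham at 7 days.

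Of the Wnt7 ligands, the main signals of neural cells to brain endothelium, Wnt7b was called lower than sham at 7 days and Wnt7a was not. Wnt7b held 83, 86 and 146 normalized counts in ipsilateral sham and 36, 26 and 66 in ipsilateral tMCAO libraries (-1.33 ± 0.40, adjusted p = 0.0249), with no overlap. This call was lost without sham replicate 3 (-1.07) or tMCAO replicate 1 (-1.27) or 2 (-1.04). Against contralateral tMCAO libraries, with 262, 98 and 78, the difference was -1.65 ± 0.40 (adjusted p = 0.00571), and without contralateral replicate 1 it was -1.12 and not called. Wnt7a held 29, 38 and 42 in sham and 16, 9 and 26 in tMCAO libraries and did not pass the test against sham (-1.15 ± 0.40, adjusted p = 0.0552). Against the contralateral side (83, 34 and 31) it was called lower at -1.45 ± 0.40 (adjusted p = 0.0151), and without contralateral replicate 1 (-1.01) or ipsilateral replicate 2 (-1.09) it was not called. Ndp, which encodes norrin, held 24, 16 and 33 in sham and did not pass the test against it (-1.28 ± 0.44, adjusted p = 0.0517), and was called lower against the contralateral side, with 12, 5 and 12 in ipsilateral and 60, 19 and 26 in contralateral tMCAO libraries (-1.67 ± 0.44, adjusted p = 0.0106), a call that ended without contralateral replicate 1 (-1.21) or ipsilateral replicate 2 (-1.30). At 24 h none of the 3 was called, with log2 fold changes against sham of -0.45 for Wnt7b, -0.71 for Wnt7a and -0.53 for Ndp. Markers of neural cells were lower against sham in the same 7 day libraries, with 8 of 8 genes called for neurons, 3 of 5 for oligodendrocyte precursors (sums of 2326 to 3188 against 3024 to 4558) and 2 of 6 for astrocytes (8734 to 11651 against 13404 to 28990). Their part in the result was not tested.

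Wnt10a and Wnt6, neighbours on chromosome 1, were lower in ipsilateral tMCAO libraries at 7 days but close to the limit of low values. Wnt10a held 8, 11 and 18 normalized counts in sham and 1, 0 and 3 in tMCAO libraries (-2.67 ± 0.56, adjusted p = 0.00202). At 24 h the values were 7, 3 and 1 in sham and 10, 7 and 6 in tMCAO libraries (1.09 ± 0.56, adjusted p = 0.142). Wnt6 fell from 22, 20 and 12 in sham to 2, 10 and 8 in tMCAO libraries at 7 days (-1.47 ± 0.40, adjusted p = 0.0147). Its call was lost without sham replicate 1 (-1.31) or 2 (-1.37) or tMCAO replicate 1 (-0.89). These fold changes are on the log2(value + 1) scale, which understates changes of such low genes. In total 3 of the 13 tested ligands were lower and 0 higher at 24 h, and 3 were lower and 2 higher at 7 days. Over all genes the shares lower and higher were 8.23% and 10.0% at 24 h and 9.95% and 3.27% at 7 days. The third ligand lower at 24 h was Wnt2b (-0.93) and, named like it to complete a count after values were seen, Wnt5b was higher at 7 days than at 24 h in ipsilateral tMCAO libraries (0.65). Both calls were lost in 4 of 6 fits without a single library, with values from -1.24 to -0.75 for Wnt2b and 0.52 to 0.85 for Wnt5b. Wnt3, Wnt4, Wnt9a and Wnt9b were called in no stroke comparison.

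The receptors and co-receptors were lower at 24 h in 6 of 15 genes and higher in 0, and 14 of the 15 had a negative value. Of all genes 8.23% were called lower and 10.0% higher, and their median log2 fold change was -0.02. Lrp6, a co-receptor of β-catenin signalling, held 3017, 2846 and 2756 normalized counts in sham and 1676, 1610 and 1908 in tMCAO libraries (-0.73 ± 0.12, adjusted p = 1.91e-04). The groups were far apart, and the contralateral tMCAO libraries stood at 2554, 2923 and 2901 (-0.69 ± 0.12, adjusted p = 4.19e-04). At 7 days Lrp6 held 2532, 2478 and 2027 in sham and 2179, 2121 and 2566 in tMCAO libraries, which overlapped (-0.03 ± 0.12), and the change of the effect was 0.70 ± 0.17 (adjusted p = 0.0135). Its relative Lrp5 differed less from sham at 24 h. At that time Lrp5 held 4749, 4329 and 4889 in sham and 3719, 3727 and 3697 in tMCAO libraries, which lay below sham with a fold change under the limit (-0.32 ± 0.12, adjusted p = 0.0491). At 7 days sham held 3168, 3756 and 3750 and tMCAO 4256, 3844 and 5498, all above sham (0.34 ± 0.12, adjusted p = 0.0633). The change of the effect was called (0.66 ± 0.17, adjusted p = 0.0194), and the call was lost without sham replicate 1 at 7 days (0.58) or tMCAO replicate 3 at 7 days (0.51).

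Reck, the co-receptor for Wnt7, had the largest decrease among the receptors at 24 h. Its values were 8544, 7230 and 6998 in sham and 3389, 2293 and 5158 in tMCAO libraries (-1.14 ± 0.29, adjusted p = 0.00577), without overlap. At 7 days the groups overlapped, with 7430, 8128 and 4908 in sham and 4333, 4899 and 6936 in tMCAO libraries (-0.34 ± 0.29, adjusted p = 0.484). The change of the effect did not pass the test (0.81 ± 0.41, adjusted p = 0.213). Its partner Adgra2 held 6930, 5975 and 6271 in sham and 5836, 5722 and 6064 in tMCAO libraries at 24 h and was not called at either time point (-0.12 ± 0.15 and 0.23 ± 0.15). The difference between Reck and Adgra2 was not tested. The norrin receptor Fzd4 was not called either, with 5319, 3467 and 5664 in sham and 4169, 4647 and 3880 in tMCAO libraries at 24 h (-0.16 ± 0.27). At 7 days it held 2779, 3842 and 4090 in sham and 6152, 4259 and 7659 in tMCAO libraries, all above sham, without passing the test (0.73 ± 0.27, adjusted p = 0.0668). Tspan12, which joins Fzd4 to norrin, held 1151, 1002 and 1014 in sham and 999, 963 and 1027 in tMCAO libraries at 24 h (-0.08 ± 0.10).

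Of the other Frizzled receptors, Fzd6 was called at 24 h, Fzd10 at 7 days and Fzd2, Fzd3 and Fzd7 at both time points. Fzd6, the Frizzled with the highest level per kb, held 4798, 4160 and 4201 in sham and 2740, 2808 and 3224 in tMCAO libraries at 24 h (-0.59 ± 0.15, adjusted p = 0.00679) and overlapped at 7 days (0.03 ± 0.15). Without sham replicate 1 (-0.52) or tMCAO replicate 1 (-0.54) or 2 (-0.56) the 24 h value of Fzd6 fell under the limit. Fzd3, a receptor known from axon guidance, was lower at 24 h (374, 283 and 318 against 194, 237 and 184, -0.66 ± 0.19, adjusted p = 0.0131) and at 7 days (272, 344 and 363 against 153, 167 and 142, -1.07 ± 0.19, adjusted p = 4.77e-04). Its 24 h call was lost without sham replicate 1 (-0.56). Fzd2 and Fzd7 were lower by 0.90 and 0.65 on the log2 scale at 24 h and by 0.97 and 0.68 at 7 days, and each of these 4 calls was lost in 3 or 4 of the 6 fits without a single library, with values between -1.25 and -0.40. Fzd10 was lower at 7 days (-1.28 ± 0.39, adjusted p = 0.0256), from 38, 29 and 20 in sham to 9, 16 and 9, and 4 of the 6 fits without a single library lost this call (-1.54 to -1.07 over the 6). Fzd1, Fzd5, Fzd8 and Fzd9 were called in no stroke comparison in the fit without a replicate block.

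Of the R-spondin axis, which sets how much Frizzled receptor stays on the cell surface, Znrf3 and Lgr6 were called. Znrf3, a ubiquitin ligase that removes Frizzled receptors, held 493, 451 and 439 in sham and 304, 259 and 292 in tMCAO libraries at 24 h (-0.69 ± 0.14, adjusted p = 0.00122) and overlapped at 7 days (-0.04 ± 0.14). Lgr6, a receptor for R-spondins, was scarce and held 18, 10 and 21 in sham and 3, 0 and 2 in tMCAO libraries at 7 days (-2.86 ± 0.56, adjusted p = 0.00124). At 24 h its values were 10, 3 and 12 in sham and 24, 14 and 11 in tMCAO libraries, which overlapped (0.99 ± 0.56, adjusted p = 0.186). The 4 other tested genes of this group, Lgr4, Rnf43, Rspo1 and Rspo3, were called in no stroke comparison in the fit without a replicate block.

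The secreted inhibitors were lower in 2 of 5 tested genes at 24 h and in 2 of 5 at 7 days. Of all genes 8.23% were called lower at 24 h and 9.95% at 7 days. Sfrp1, which binds Wnt ligands outside the cell, held 39, 94 and 74 in sham and 31, 31 and 22 in tMCAO libraries at 24 h (-1.20 ± 0.31, adjusted p = 0.00703), and 70, 72 and 96 in sham and 11, 13 and 14 in tMCAO libraries at 7 days (-2.55 ± 0.31, adjusted p = 1.40e-05). This was the smallest adjusted p among the members in these comparisons against sham. Dkk3, a divergent member of the Dickkopf family, held 452, 424 and 613 in sham and 203, 137 and 215 in tMCAO libraries at 7 days (-1.43 ± 0.27, adjusted p = 8.25e-04) and overlapped at 24 h (-0.14 ± 0.27). Sfrp5 was lower at 24 h (67, 60 and 90 against 35, 19 and 13, -1.74 ± 0.56, adjusted p = 0.0243). Its log2 fold change ranged from -2.11 to -1.43 without single libraries, and 4 of these 6 fits lost the call. Dkk2, which binds Lrp5 and Lrp6, was called higher on the ipsilateral than on the contralateral side at 24 h. It was the only such member in the fit without a replicate block. The values were 287, 193 and 317 against 177, 117 and 138 (0.87 ± 0.27, adjusted p = 0.0245), but ipsilateral sham libraries held 205, 291 and 194 (0.20 ± 0.27). This call was lost in 4 of the 6 fits without a single library (0.73 to 1.08 over the 6). At 7 days it fell to 88, 86 and 101 in ipsilateral tMCAO libraries (-1.50 ± 0.27 against 24 h, adjusted p = 8.51e-04). Markers of neurons, fibroblasts and the choroid plexus were lower in the same 7 day libraries, in 8 of 8, 3 of 8 and 3 of 6 genes, and their part in the values of Sfrp1 and Dkk3 was not tested.

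The target genes were lower at 24 h in 4 of 7 genes, and all 7 had a negative log2 fold change, from -1.25 to -0.36. Of all genes 8.23% were called lower at 24 h, with a median of -0.02, and 9.95% at 7 days. At 7 days 0 of 7 were called by limma, with values from -0.35 to 0.43, and the smallest adjusted p was that of Sox17. Axin2, which β-catenin signalling induces and whose product restrains it, held 2440, 2247 and 1813 in sham and 912, 667 and 1274 in tMCAO libraries at 24 h (-1.23 ± 0.21, adjusted p = 3.10e-04). All 3 tMCAO libraries lay below every sham and contralateral library of that day, and the contralateral tMCAO libraries held 1777, 1936 and 2204 (-1.10 ± 0.21, adjusted p = 9.92e-04). At 7 days sham held 2040, 1896 and 1465 and tMCAO 1064, 1434 and 1810, which overlapped (-0.35 ± 0.21, adjusted p = 0.304). This overlap rested on the last library of each group (1465 and 1810). Without either of them every tMCAO library of Axin2 lay below every sham library. Notum, a secreted enzyme that removes the lipid from Wnt ligands, held 1228, 963 and 800 in sham and 399, 341 and 516 in tMCAO libraries at 24 h (-1.25 ± 0.25, adjusted p = 0.00106). At 7 days it overlapped, with 983, 1029 and 547 in sham and 663, 634 and 1033 in tMCAO libraries (-0.12 ± 0.25). The endothelial markers differed by -0.12 on the mean log2 scale at 24 h and pericyte markers by -0.31, with 2 of 6 lower. Relative to the endothelial markers, Axin2, Notum, Lrp6, Reck, Sfrp1, Sfrp5 and Wnt11 were the members called lower at 24 h. The part of pericytes was not tested.

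Tnfrsf19 held 5536, 4649 and 3952 in sham and 2579, 2248 and 3277 in tMCAO libraries at 24 h, without overlap, and was called just inside the threshold (-0.81 ± 0.30, adjusted p = 0.0498). The call was lost without any 1 of 5 of the 6 libraries, all except tMCAO replicate 3, with adjusted p-values between 0.0562 and 0.164. Apcdd1, a membrane inhibitor of Wnt signalling, held 9101, 9708 and 7713 in sham and 6880, 5792 and 6584 in tMCAO libraries and stayed under the limit of the fold change (-0.46 ± 0.14, adjusted p = 0.0222). Nkd1, which binds Dishevelled, held 3259, 3031 and 2335 in sham and 2645, 1806 and 2297 in tMCAO libraries, which overlapped (-0.36 ± 0.27, adjusted p = 0.336). The remaining call was that of Nkd2 (-0.66), named to complete the count after values were seen, and it was lost in 4 of 6 fits without a single library (-0.89 to -0.48). At 7 days none of these 4 was called.

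Sox17 was lower on the ipsilateral than on the contralateral side at 24 h and higher at 7 days than at 24 h. At 24 h its values were 6404, 4490 and 5640 in sham, 5351, 6253 and 6243 in contralateral and 3432, 4165 and 4294 in ipsilateral tMCAO libraries. Against the contralateral side this was -0.59 ± 0.16 (adjusted p = 0.0128), and against sham -0.47 ± 0.16, under the limit of the fold change (adjusted p = 0.0370). At 7 days sham held 5603, 6025 and 5057 and ipsilateral tMCAO 6455, 7300 and 8850, all above sham (0.43 ± 0.16, adjusted p = 0.0807). From 24 h to 7 days ipsilateral tMCAO libraries rose by 0.92 ± 0.16 (adjusted p = 7.36e-04), and the change of the effect was 0.90 ± 0.23 (adjusted p = 0.0189). The latter call was lost without sham replicate 1 (0.78) or tMCAO replicate 1 (0.80) at 24 h or tMCAO replicate 3 at 7 days (0.77), and the call between the sides without contralateral replicate 2 (-0.55) or 3 (-0.55) or ipsilateral replicate 1 (-0.49).

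Of the transcription factors that carry the signal, Tcf7 was lower on the ipsilateral side at 24 h. It held 918, 1113 and 1064 in ipsilateral and 1427, 1882 and 1466 in contralateral tMCAO libraries (-0.62 ± 0.12, adjusted p = 9.10e-04) and 1633, 1289 and 1439 in sham (-0.49 ± 0.12, adjusted p = 0.00451). Without contralateral replicate 2 or ipsilateral replicate 1 the call between the sides was lost, with values of -0.49 and -0.54. Lef1 held 3141, 2983 and 3704 in sham and 2252, 2636 and 2012 in tMCAO libraries at 24 h, all lower, under the limit (-0.51 ± 0.15, adjusted p = 0.0154). At 7 days the values were 3129, 3174 and 3548 in sham and 3031, 2823 and 2718 in tMCAO libraries (-0.20 ± 0.15). Tcf7l1 and Tcf7l2 and the transducers Dvl1, Dvl2, Dvl3 and Axin1 were called in no stroke comparison, and neither were Porcn and Wls, which ligands need to be secreted. At 24 h these 8 genes had log2 fold changes against sham from -0.40 to -0.07.

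Genes of the pathway outside the members were taken from lists drawn up with earlier results of these data known. Of 11 barrier genes of brain endothelium that Wnt signalling is known to control, 5 were lower and 0 higher at 24 h, against 8.23% and 10.0% of all genes, and 0 were called by limma at 7 days. Abcb1a, an efflux transporter, held 35432, 28601 and 29198 in sham and 16641, 14711 and 19865 in tMCAO libraries at 24 h (-0.87 ± 0.16, adjusted p = 4.41e-04). Slc7a5, a transporter of large amino acids, held 25524, 17604 and 27779 in sham and 11460, 11411 and 11826 in tMCAO libraries (-1.004 ± 0.24, adjusted p = 0.00360). Both were higher again in ipsilateral tMCAO libraries at 7 days than at 24 h, by 0.98 and 0.91. Mfsd2a, a lipid transporter that restrains transcytosis, held 6578, 6588 and 5452 in sham and 4021, 2666 and 3764 in tMCAO libraries (-0.85 ± 0.21, adjusted p = 0.00491). The transcription factor Foxq1 (-0.61) and the growth factor binding protein Fgfbp1 (-1.71) completed the 5. Cldn5, the main claudin of brain endothelium, was not called at 24 h, with 50190, 47515 and 43185 in sham and 47535, 48060 and 42176 in tMCAO libraries (-0.03 ± 0.16). Plvap, which marks leaky vessels, was not called at either time point (0.36 ± 0.35 and 0.86 ± 0.35, adjusted p = 0.454 and 0.101).

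**Figure D5:**
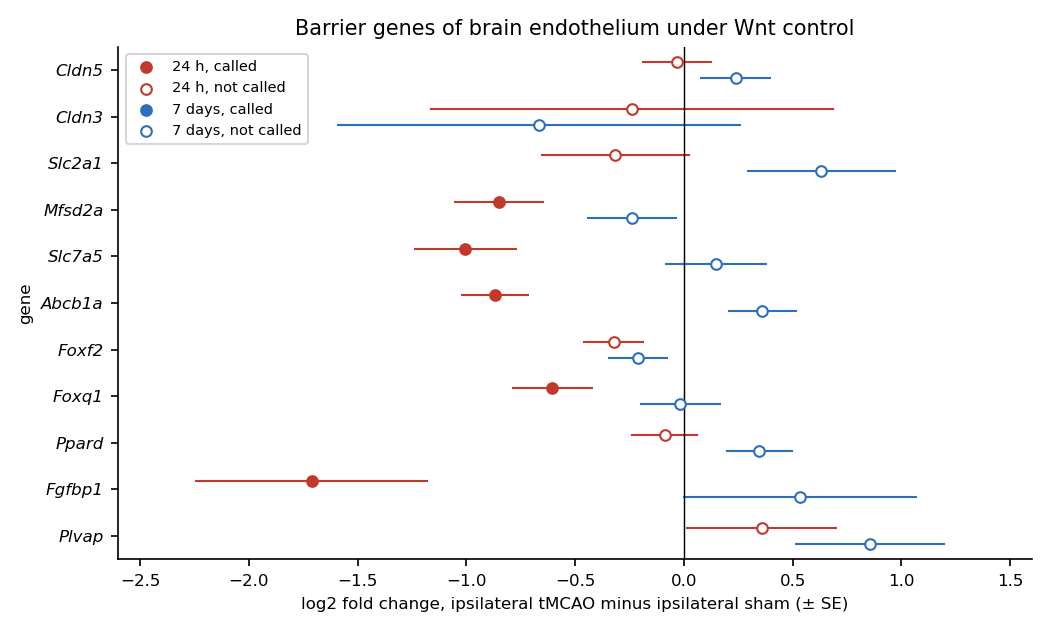
Log2 fold change (± SE) of ipsilateral tMCAO against ipsilateral sham at 24 h (red) and 7 days (blue) for 11 barrier genes, with filled points for called genes. The 5 called genes all lie left of 0 at 24 h, from -1.71 for Fgfbp1 to -0.61 for Foxq1, and no gene is filled at 7 days.

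Of 21 genes of the β-catenin branch 2 were lower at 24 h and 2 at 7 days, shares near those of all genes (8.23% and 9.95%), and at each time point these were Apc2 (-1.18 and -1.22) and Pygo1 (-0.95 and -0.75). Ctnnb1, which encodes β-catenin, was not called (-0.07 ± 0.15 at 24 h). Of 13 genes of the planar polarity branch 2 were lower at 24 h and 3 at 7 days, against the same shares of all genes. Prickle2 (-0.73) and Daam2 (-1.16) were lower at 24 h, and Prickle2 (-0.66), Ptk7 (-0.66) and Celsr2 (-1.30) at 7 days. Among 5 surface inhibitors and modulators Sostdc1 alone was called, lower at 7 days (73, 51 and 55 in sham and 1, 8 and 5 in tMCAO libraries, -3.65 ± 1.07, adjusted p = 0.0222). Choroid plexus markers were lower in the same comparison, with sums of 676, 3112 and 2269 in these tMCAO libraries and 28788, 15693 and 27596 in sham, and their part in the value of Sostdc1 was not tested. Of the 4 general target genes, Ccnd1, which encodes cyclin D1, was higher at 24 h, with 1721, 1650 and 1495 in sham and 3523, 2619 and 2694 in tMCAO libraries (0.85 ± 0.16, adjusted p = 5.17e-04), opposite in sign to Axin2. Myc was higher on the ipsilateral than on the contralateral side at 24 h (2.76 ± 0.87, adjusted p = 0.0247). Against sham at 24 h Myc was not called, but its values of 1087, 1152 and 721 in tMCAO libraries all lay above 163, 210 and 278 in sham. Sp5 and Wisp1 were not called against sham either.

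Between the control groups no member was called by limma. Sham hemispheres, compared at 24 h and at 7 days, gave 3 and 1 members with an unadjusted p under 0.05 in limma, against 2.30% and 2.25% of all genes. In both comparisons 0% of all genes were called. Contralateral tMCAO against contralateral sham gave 3 such members at 24 h and 9 at 7 days, against 2.53% and 10.3% of all genes. Of all genes 0% and 0.0313% were called. From 24 h to 7 days, 9 members had an unadjusted p under 0.05 in ipsilateral sham, 4 in contralateral sham and 16 in contralateral tMCAO libraries. The shares of all genes at this unadjusted p in limma were 14.1%, 10.8% and 16.5%, and 0.476%, 0.332% and 0% of all genes were called. Among these members Lrp5 differed in ipsilateral sham libraries at 7 days from 24 h by -0.39 on the log2 scale without passing the test (adjusted p = 0.149 in limma). The change of effect of Lrp5 given above compares each tMCAO group with the sham group of its own day.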

How the data were processed

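RNA of brain microvessels was sequenced from poly(A)-selected stranded libraries. The deposited table holds, per gene and library, a score: reads counted with featureCounts 1.5.1 after alignment with STAR 2.5.2b to GRCm38 (versions per the submitters' processing notes), divided by the DESeq2 size factor of the library and rounded by the authors to whole numbers. They are therefore no raw counts, and no count model was run. All 24 libraries and all columns of values were used. The 24 libraries were grouped by surgery, hemisphere and time point as labelled.

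Genes with a mean above 5 were fitted on log2(value + 1) with limma 3.58.1 in R 4.3.3 (mean-variance trend, all 8 groups in 1 model, Benjamini-Hochberg adjustment over all 15982 genes). The scripts were tested on simulated data. Levels per kb used exon lengths of GENCODE. Read numbers per library were estimated from the steps between low values. On simulated data this recovered size factors drawn at random, but not all that were exact short fractions, so these read numbers are estimates. No test used them. The genes were chosen with earlier results of these data known, as were the pathway and marker lists. An item of the barrier list is not reported here. Values per library are given for members called in at least 2 stroke comparisons or with the largest change of their role, for members the study names and for those known from brain endothelium.

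Replicate numbers are shared between groups. Deviations of same-numbered hemispheres correlated at 0.15 to 0.47 in sham pairs, all above 0.1, and at 0.06 to 0.36 in tMCAO pairs, where not every pair passed 0.1. Ipsilateral tMCAO and sham pairs, which come from different mice and do not bear on a pairing of hemispheres, had means of -0.16 and -0.01. No label ties same-numbered hemispheres to the same mice, and the main fits were made without a block. The comparisons between hemispheres therefore left any pairing unused, except in an alternative with a block. Further alternatives were another pseudocount (0.5), other filters, median centring, no limit on the fold change, fits on the compared groups only, each library left out in turn and a scaling to endothelial markers.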

Additional observations from a re-analysis of the deposited data

Results flagged for a closer look

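The stroke effect in the ipsilateral hemisphere at 7 days differed from that at 24 h, by the interaction in limma, for 10 Wnt genes. The difference was positive for Wnt11 (1.74 on the log2 scale), Wnt5a (1.24), Notum (1.13), Sox17 (0.90), Lrp6 (0.70), Lrp5 (0.66) and Znrf3 (0.66). It was negative for Dkk3 (-1.29), Wnt10a (-3.76) and Lgr6 (-3.85), of which Wnt10a and Lgr6 had at most 34 normalized counts in any library. Leaving out each library in turn kept 5 of these calls in every fit, those of Lgr6, Lrp6, Wnt10a, Wnt11 and Wnt5a.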

How the results depend on the processing

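No called log2 fold change of a named member reversed its direction under any alternative. No uncalled value was called in the opposite direction, but the signs of values that stayed uncalled were not compared. Over alternatives other than a left-out library, 599 values kept their side of the threshold, 59 lost the call and 3 gained one. Without single libraries these numbers were 424, 139 and 1. Members with a mean above 20 only gave 2 lower between the time points and 1 negative for the change of effect, because members with lower means were not tested. Median centring gave 16 lower against the contralateral side at 24 h and 8 higher between the time points. Without a limit on the fold change, 1 member was higher against the contralateral side at 7 days and 8 between the time points. Fits on the compared groups only gave 5 lower against sham and 4 lower against the contralateral side at 7 days and 2 lower between the time points. Scaling to the endothelial markers, chosen after the data were seen, gave 7 lower against sham at 24 h, 0 higher against sham at 7 days, 2 higher and 3 lower against the contralateral side at 24 h, 3 higher between the time points and 3 positive for the change of effect. Without single libraries, the numbers higher ranged from 0 to 0 against sham at 24 h, 0 to 3 at 7 days, 0 to 1 and 0 to 0 against the contralateral side, 3 to 8 between the time points and 3 to 7 for the change of effect, and the numbers lower from 7 to 17, 5 to 10, 8 to 14, 7 to 14, 2 to 5 and 2 to 4. The cause was not tested where none is given.

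With the replicate block, 2 members were higher against the contralateral side at 24 h and 1 at 7 days, and 14 were lower against sham at 24 h. The member gained as higher was Fzd9 (0.61) at 24 h and Sfrp2 (1.34) at 7 days, and Fzd10 was gained as lower at both time points (-0.68 and -0.97) and Rspo1 at 7 days (-1.23). The calls of Notum for the change of effect, Fzd7 against sham at 7 days, Sfrp1 against the contralateral side at 24 h, and Tnfrsf19 and Wnt2b against sham at 24 h were lost with the block. Against sham, between the time points and for the change of effect, shared numbers join pools of different mice. The counts and losses with the block in those comparisons therefore do not bear on a pairing of hemispheres. In sham and in tMCAO hemispheres, 6 of 6 libraries at each time point correlated best with their own number. Members below about 20 normalized counts are limited by counting error.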

Other observations

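The 4 members that were not tested held 0 to 16 normalized counts in the 24 libraries. Fzd9, a Frizzled receptor, held 95, 59 and 74 in contralateral tMCAO libraries and 27, 35 and 33 in contralateral sham libraries at 7 days, all higher, without passing the test (1.22 on the log2 scale, adjusted p = 0.0957 in limma). Tcf7l1 was 0.55 higher in ipsilateral tMCAO libraries at 7 days than at 24 h with an adjusted p of 3.81e-04 in limma, under the limit of the fold change.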
